A study of Danio rerio with 30 samples.

Results

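Amacrine cells are sorted by the transmitter they release, and 10 zebrafish genes that mark these classes were followed through a retinal injury data set. The genes were chata and slc18a3a for acetylcholine, gad1a, gad1b, gad2 and slc32a1 for GABA, slc6a9 for glycine, th for dopamine, and calb2a and calb2b for the calcium-binding protein calretinin. They were picked by name and not by a cutoff on measured values, although earlier results of these data were known. Matching the names to the Ensembl identifiers of both count tables gave 11 rows of 32520. Of the 10 genes, 6 were found under their own symbol (CHAT, GAD2, SLC32A1, SLC6A9, TH and calb2b), and 4 only after the zebrafish paralog letter was dropped. Names are printed as the identifier table spells them.

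The entries reached without the letter carry a limit. GAD1 stands beside 2 identifiers, called here the first GAD1 entry (ENSDARG00000027419) and the second GAD1 entry (ENSDARG00000093411). They are gad1a and gad1b, but the table does not say which is which. CALB2 (ENSDARG00000041062), listed separately from calb2b, was taken as calb2a. SLC18A3 also stands beside 2 identifiers, of which 1 is slc18a3a. The SLC18A3 entry ENSDARG00000006356 was tested, whereas ENSDARG00000107527 held at most 5 counts in any library and did not pass the filter on low counts. That left 10 rows tested in each experiment. Paralogs of close sequence may share reads, so values within the GAD1, SLC18A3 and calretinin pairs are less certain than the others.

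Amacrine cells are the inhibitory interneurons of the inner retina, where they shape the signals that pass from bipolar cells to ganglion cells. Most release GABA or glycine. Starburst amacrine cells release acetylcholine as well as GABA and serve direction selectivity, and a small dopaminergic class adjusts the retina to light. Teleost fish regrow lost amacrine cells from Müller glia, which re-enter the cell cycle after injury. None of the genes is exclusive to amacrine cells, since horizontal cells of fish also make GABA and calretinin occurs in ganglion cells too.

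Poly(A) RNA from adult zebrafish retinas was sequenced as 30 libraries in 10 groups of 3, in 2 experiments that were counted and fitted separately. In the needle poke experiment all fish were wild type. An uninjured, untreated group was set beside fish whose retina had been poked with a needle through the back of the eye and that were immersed in DMSO, in PLX3397 (pexidartinib, an inhibitor of the CSF1 receptor on which microglia depend) or in ZVAD-fmk (a caspase inhibitor). The uninjured group received no DMSO, so injury and solvent cannot be told apart there. In the NMDA experiment no drug was given, and wild-type fish and fish mutant for csf1ra or for csf1rb were left uninjured or received an injection of NMDA, an excitotoxic glutamate receptor agonist, into the eye. Tissue of every injured group was collected 2 days post injury. The labels give no allele, no exact age and no number of fish per library, and nothing says that libraries came from separate fish, so p-values measure the spread between libraries, which may in part be technical.

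Libraries of the needle poke experiment held 38933511 to 92198888 counts and those of the NMDA experiment 22849708 to 41622168. Sample titles hold the letters MG, taken here to mean Müller glia although the titles do not spell it out. No sort is described. Markers of rods, cones, bipolar, horizontal and ganglion cells, Müller glia, microglia and dividing cells all had counts in both experiments. No gene of these lists was at 0 throughout. The targeted csf1ra averaged 4.15 ± 0.211 CPM (counts scaled to a common library size; SD, n = 3) in uninjured wild-type libraries and 0.245 ± 0.0778 in uninjured csf1ra mutants. The targeted csf1rb averaged 0.595 CPM and 0.17 CPM in uninjured wild-type and csf1rb mutant libraries. Of the needle poke libraries, 4 stood apart from their groups in earlier work on these data: uninjured replicate 2, DMSO replicate 3, PLX3397 replicate 2 and ZVAD-fmk replicate 1. Summed CPM of pan-neuronal genes was 3403 in that uninjured library against 5299 and 4991, 3183 in that DMSO library against 4450 and 4495, and 2248 in that PLX3397 library against 5083 and 3879. In the NMDA experiment the uninjured csf1ra mutant replicate 5 stood apart, with a bipolar cell sum of 4174 CPM against 2455 and 2282. Results that rest on these libraries are given with and without them. The libraries were picked from these same data as far from their groups. Leaving them out tends to lower the spread, so adjusted p-values from those fits can be too small and are no independent support.

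Levels below are CPM scaled with TMM factors, as the mean ± SD of 3 libraries. CPM takes no account of gene length, so levels of different genes are not compared. A CPM is a share of a library, and in RNA of mixed cells fewer cells of a type and less RNA per cell cannot be told apart. Whether the libraries came from whole retina or from material enriched in Müller glia was not settled. Summed CPM of Müller glia genes in uninjured wild-type libraries was 33608 to 53805 (needle poke) and 22064 to 24964 (NMDA). Rod sums there were 4930 to 6412 and 16200 to 18441, and cone sums 14085 to 15037 and 7972 to 10185. These lists hold different genes, so their sums do not give shares of cells, and enrichment was not tested. With enrichment, the share of other cells could also vary between preparations, which was not tested. Fold changes, their SE and adjusted p-values come from edgeR's quasi-likelihood test with Benjamini-Hochberg adjustment over all genes tested, and a gene was called at an adjusted p below 0.05.

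NMDA was followed by lower levels of nearly every transmitter gene in wild-type fish. Of the 10 rows tested, 9 fell and 0 rose, against 34.3% of all genes tested that fell and 35.6% that rose (69.9% called in all). The median log2 fold change of the 10 was -1.99, beside 0.01 over all genes. The cholinergic pair fell furthest, calb2b and the first GAD1 entry followed, and TH was the member that did not pass. For the 9, the uninjured and the injected libraries did not overlap. The share of all genes without overlap was not counted, so this does not set the 9 apart from other genes.

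**Figure D1:**
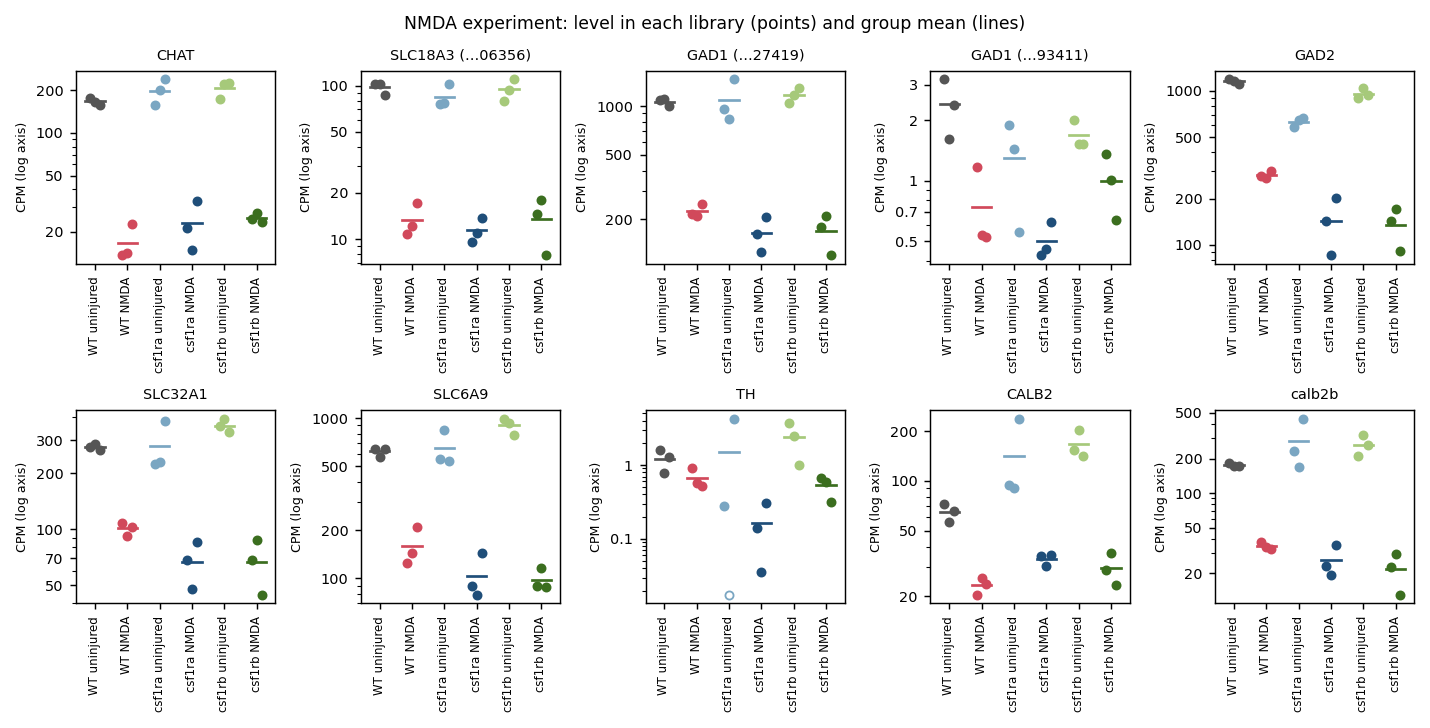
Level of each gene in CPM (log axis) in the 18 libraries of the NMDA experiment, points for libraries and lines for group means, with an open point at the foot of the TH panel for the library with 0 counts. All panels but TH and the second GAD1 entry have their NMDA libraries below the uninjured ones of the same genotype.

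CHAT (ENSDARG00000015854), choline acetyltransferase, makes acetylcholine. Its level was 178, 167 and 157 CPM in the uninjured wild-type libraries and 13.6, 14.1 and 22.6 CPM after NMDA. The log2 fold change was -3.32 (SE 0.26, 9.97-fold lower, adjusted p = 4.4e-09). The vesicular acetylcholine transporter gene slc18a3a lies beside chata in the RefSeq annotation (GRCz12tu), with 0 genes between them, although which SLC18A3 entry it is was not settled. The tested SLC18A3 entry stood at 103, 103 and 86.8 CPM uninjured and at 10.7, 12.3 and 17.3 CPM after NMDA, a log2 fold change of -2.86 (SE 0.25, adjusted p = 2.3e-08). The pair fell in both mutants as well. CHAT was 199 ± 41 CPM uninjured and 23 ± 9.13 CPM after NMDA in csf1ra mutants (log2 fold change -3.11), and 208 ± 28.6 and 24.9 ± 1.86 CPM in csf1rb mutants (-3.06). SLC18A3 changed by -2.90 and -2.81 on the log2 scale. Neither gene was called between a mutant and wild type, injured or not, and the interaction of CHAT with csf1rb was 0.26. After NMDA the csf1rb mutant libraries of CHAT, 24.6, 27 and 23.3 CPM, all lay above the wild-type ones (log2 difference 0.57, adjusted p = 0.098). Without wild-type NMDA replicate 3 that difference was 0.85 (adjusted p = 0.025), and it also passed without csf1ra mutant NMDA replicate 3 (0.57, adjusted p = 0.047).

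GABA is made by glutamate decarboxylases, and its synthesis genes fell in wild type, with fold changes smaller than those of the cholinergic pair by a margin that was not tested. The first GAD1 entry stood at 1092, 1105 and 996 CPM uninjured and at 216, 209 and 247 CPM after NMDA (log2 fold change -2.25, SE 0.23, adjusted p = 1.5e-07). GAD2, the second decarboxylase gene, stood at 1182, 1158 and 1110 CPM uninjured and at 282, 271 and 300 CPM after NMDA (-2.02, SE 0.24, adjusted p = 1.0e-06). SLC32A1, which loads both GABA and glycine into vesicles, stood at 276, 285 and 264 CPM uninjured and at 108, 92.1 and 103 CPM after NMDA (-1.45, SE 0.24, adjusted p = 4.0e-05). The second GAD1 entry was read rarely, at 3.18, 1.61 and 2.38 CPM uninjured and 1.17, 0.533 and 0.522 CPM after NMDA (-1.66, SE 0.42, adjusted p = 0.0019). In csf1ra mutants all 4 GABA rows fell, by 2.72, 1.36, 2.13 and 2.05 on the log2 scale for the first GAD1 entry, the second GAD1 entry, GAD2 and SLC32A1. The call of the second entry was lost without uninjured csf1ra mutant replicate 1 (-0.99, adjusted p = 0.077). In csf1rb mutants the same rows changed by -2.77, -0.75, -2.82 and -2.43, and the second GAD1 entry did not pass (adjusted p = 0.11).

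SLC6A9 (ENSDARG00000018534), the glycine transporter GlyT1, marks glycinergic amacrine cells and also occurs in glia of other vertebrates. In wild type it stood at 643, 574 and 643 CPM uninjured and at 125, 143 and 207 CPM after NMDA (log2 fold change -1.97, SE 0.24, adjusted p = 1.1e-06). It fell further in csf1rb mutants, from 990, 933 and 782 CPM to 89, 115 and 88.3 CPM (-3.21, SE 0.25, 9.25-fold lower). The csf1rb mutant libraries thus lay above every wild-type library without injury and below every one with NMDA. The interaction, which tests the difference between the 2 responses, was -1.24 on the log2 scale (SE 0.33, 95% interval -1.95 to -0.53, adjusted p = 0.026). SLC6A9 was the only 1 of the 10 rows to pass this test by edgeR with all libraries, beside 8.18% of all genes (4.1% higher and 4.07% lower). Of the 10 rows, 5 had an unadjusted p below 0.05 by edgeR, and DESeq2 called 3. A count of 1 row of 10 is too few to set apart from that background. The interaction missed the threshold in 8 of 23 alternative settings, each of which left out 1 library, with values from -1.39 to -1.0 over the leave-outs and the weakest without wild-type NMDA replicate 3 (-1.0, adjusted p = 0.071). The other 7 libraries were wild-type uninjured replicates 1 (-1.27), 2 (-1.19) and 3 (-1.27), csf1rb mutant NMDA replicates 1 (-1.18) and 4 (-1.17), and csf1rb mutant uninjured replicates 1 (-1.17) and 2 (-1.22). In csf1ra mutants SLC6A9 changed by -2.64, and the interaction of -0.68 did not pass (adjusted p = 0.24).

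TH (ENSDARG00000030621), tyrosine hydroxylase, is the rate-limiting enzyme of dopamine synthesis and marks the sparse dopaminergic cells. Its levels were too low and too uneven to settle a direction in every genotype. In wild type it stood at 1.61, 0.77 and 1.28 CPM uninjured and at 0.905, 0.571 and 0.522 CPM after NMDA, with overlapping groups (log2 fold change -0.86, 95% interval -2.90 to 1.19, adjusted p = 0.43). In uninjured csf1ra mutants the 3 libraries held 7, 0 and 115 counts, or 0.283, 0 and 4.24 CPM, where 0 counts allow up to 0.105 CPM. After NMDA these mutants held 4, 1 and 9 counts. The call in csf1ra mutants (-3.18, SE 1.12, adjusted p = 0.017) therefore rested on uninjured replicate 5. Without that library the difference was 0.29 (adjusted p = 0.82). In csf1rb mutants TH went from 3.74, 2.48 and 1 CPM to 0.675, 0.597 and 0.318 CPM, without overlap (-2.15, SE 0.92, adjusted p = 0.045). That call was lost in 14 of 23 settings, with -1.69 (adjusted p = 0.15) when uninjured csf1rb mutant replicate 1 was left out.

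Both calretinin genes fell in all 3 genotypes. CALB2 stood at 72.2, 56.6 and 65.4 CPM in uninjured wild-type libraries and at 20.5, 25.9 and 23.9 CPM after NMDA (log2 fold change -1.47, SE 0.29, adjusted p = 0.0002). calb2b (ENSDARG00000036344) stood at 182, 172 and 173 CPM and, injected, at 37.2, 34.1 and 32.7 CPM (-2.34, SE 0.32, adjusted p = 5.5e-06). In csf1ra mutants the log2 fold changes were -2.07 for CALB2 and -3.45 for calb2b, a 10.9-fold fall. Without uninjured csf1ra mutant replicate 5, at 445 CPM of calb2b against 235 and 167 CPM, the log2 fold changes were -1.46 and -2.96. In csf1rb mutants they were -2.48 and -3.60, a 12.2-fold fall for calb2b. The size of these falls was not shown to differ from wild type. For calb2b the interaction was -1.11 (95% interval -2.07 to -0.15, adjusted p = 0.15) with csf1ra and -1.27 (adjusted p = 0.088) with csf1rb, and for CALB2 -1.02 (adjusted p = 0.13) with csf1rb. The calb2b interaction passed without uninjured csf1ra mutant replicate 4 for csf1ra (-1.38) and for csf1rb (-1.26), and for csf1rb also without uninjured csf1ra mutant replicate 5 (-1.26) or csf1rb mutant NMDA replicate 2 (-1.56). With csf1ra, however, the calb2b interaction shrank to -0.62 (adjusted p = 0.34) without uninjured csf1ra mutant replicate 5. Without that replicate 5 the csf1rb interactions of CALB2 (-1.02) and SLC32A1 (-0.98) passed as well, and without that NMDA replicate 2 the one of SLC32A1 (-1.22).

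Counted over each mutant, 10 of 10 rows fell after NMDA in csf1ra mutants and 9 of 10 in csf1rb mutants, against 37.1% and 33.5% of all genes. No row rose in either, against 36.4% and 37%, and 73.5% and 70.5% of all genes were called in either direction. The medians of the 10 were -2.68 and -2.79, beside -1.99 in wild type, and these differences between medians were not tested. Without uninjured csf1ra mutant replicate 5 the median in csf1ra mutants was -2.27 and 9 of 10 rows fell, TH being the exception at 0.29. No row passed the interaction test with csf1ra (5.83% of all genes did, 2.56% higher and 3.27% lower), by edgeR with 1 row at an unadjusted p below 0.05 and by DESeq2 with 0. The CALB2, calb2b, CHAT, first GAD1 entry and SLC32A1 calls in csf1ra mutants held without uninjured replicate 5, at -1.46, -2.96, -2.96, -2.44 and -1.76.

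**Figure D2:**
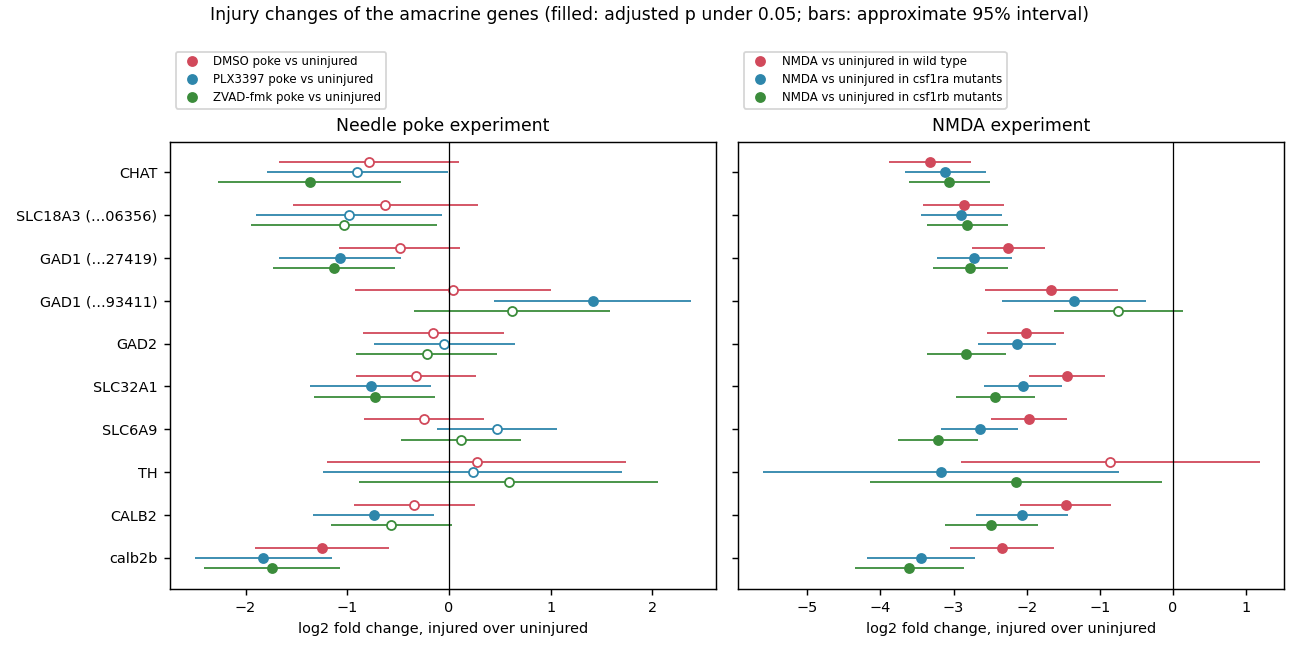
Log2 fold change of each gene after injury in both experiments, with bars for the approximate 95% interval and filled points for genes called at an adjusted p below 0.05. After NMDA all points lie below 0 and most are filled, whereas after the poke with DMSO calb2b alone is filled, at -1.25.

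Between genotypes, GAD2 and CALB2 stood apart before injury. Both mutants were compared with the same wild-type libraries, so the comparisons are not independent. In uninjured csf1ra mutants GAD2 stood at 585, 643 and 663 CPM, all below the wild-type libraries at 1110 to 1182 CPM (log2 difference -0.87, SE 0.23, 1.83-fold lower, adjusted p = 0.020). CALB2 stood at 94.9, 90.1 and 238 CPM, all above wild type (1.12, SE 0.28, adjusted p = 0.013). Thus 1 row was higher and 1 lower, beside 7.94% and 6.74% of all genes (14.7% in all). Neither call was firm. The CALB2 difference was 0.52 (adjusted p = 0.059) without csf1ra mutant replicate 5 and missed the threshold without wild-type replicate 2 (1.04, adjusted p = 0.055). The GAD2 difference missed it without wild-type replicate 1 (-0.85), 2 (-0.86) or 3 (-0.89), or without csf1ra mutant replicate 1 (-0.81). calb2b, higher by 0.69 (adjusted p = 0.14) with all libraries, passed without csf1ra mutant replicate 4 (0.96, adjusted p = 0.031). Without csf1ra mutant replicate 5 the calb2b difference was only 0.20 (adjusted p = 0.72). TH turned with 1 library. It differed by 0.31 (adjusted p = 0.84) with all libraries, and without csf1ra mutant replicate 5 it was lower than in wild type by a log2 difference of -3.15 (adjusted p = 0.024), from libraries of 7 and 0 counts. Without that replicate 0 rows were higher and 2 lower, GAD2 (-0.90) and TH, beside 6.36% and 5.84% of all genes.

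In uninjured csf1rb mutants only CALB2 was called, at 155, 202 and 142 CPM (log2 difference 1.36, SE 0.28, 2.57-fold higher, adjusted p = 0.0018). It was called in all 23 alternative settings, with values of 1.20 to 1.46. That is 1 of 10 rows, beside 26.9% of all genes called in either direction (14.5% higher and 12.4% lower). The libraries of SLC6A9 (0.54, adjusted p = 0.092), calb2b (0.59, adjusted p = 0.17) and SLC32A1 (0.38, adjusted p = 0.25) lay above wild type without passing the test, and those of GAD2 below it (-0.27, adjusted p = 0.42).

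After NMDA, GAD2 was lower in both mutants than in wild type. Its level was 143, 85.7 and 202 CPM in csf1ra mutants and 143, 170 and 90.8 CPM in csf1rb mutants, and all 6 libraries lay below the wild-type range of 271 to 300 CPM. The log2 differences were -0.99 (SE 0.24, adjusted p = 0.0064) and -1.08 (SE 0.24, adjusted p = 0.0031), and both were called in all 23 settings. GAD2 was already lower in uninjured csf1ra mutants, and its response to NMDA was not shown to differ from wild type. Its interaction was called in no setting, with values of -0.45 to 0.14 for csf1ra and -1.01 to -0.59 for csf1rb. SLC6A9 was also lower in csf1rb mutants (-0.70, SE 0.23, 1.63-fold lower, adjusted p = 0.036). This call was lost without wild-type NMDA replicate 2 (-0.77) or 3 (-0.46, adjusted p = 0.20) and without csf1rb mutant replicate 1 (-0.64) or 4 (-0.63). No member was higher in either mutant. The counts of 1 and 2 of 10 stand beside 22.4% and 23.2% of all genes (9.24% and 11.9% higher, 13.2% and 11.4% lower). With 10 rows these counts cannot be set apart from that background. In csf1ra mutants TH had the lowest value, at 4, 1 and 9 counts and without overlap with wild type (-2.01, SE 1.19, adjusted p = 0.25). It passed with only the groups compared (-2.0, adjusted p = 0.031). SLC6A9 and SLC32A1 were at -0.61 (adjusted p = 0.067) and -0.59 (adjusted p = 0.084). Both passed without csf1ra mutant NMDA replicate 3, at -0.92 and -0.80, and SLC6A9 also without wild-type NMDA replicate 1 (-0.76) or uninjured csf1ra mutant replicate 4 (-0.61). Without uninjured csf1ra mutant replicate 5, SLC32A1 (-0.59) and CALB2 (0.52) passed. In csf1rb mutants SLC32A1 passed without that library (-0.60) or without csf1rb mutant NMDA replicate 2 (-0.84).

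The balance of the 2 main GABA synthesis genes differed between groups within libraries. The ratio of GAD2 to the first GAD1 entry, which carries no depth or scaling factor, was 1.05 to 1.11 in uninjured wild-type libraries of the NMDA experiment and 1.22 to 1.31 after NMDA. It was 0.454 to 0.773 in uninjured csf1ra mutants and 0.684 to 0.973 after NMDA. In csf1rb mutants it was 0.721 to 0.891 and 0.756 to 0.807. Every mutant library thus lay below every wild-type library of this experiment. In the needle poke experiment the ratio was 0.406 to 0.431 in uninjured retinas, 0.386 to 0.596 with DMSO, 0.750 to 0.914 with PLX3397 and 0.750 to 0.838 with ZVAD-fmk. Uninjured wild-type retinas of the 2 experiments therefore did not overlap in this ratio, at means of 0.417 ± 0.013 and 1.08 ± 0.033. This gap lay between groups without a mutation, and what set the 2 experiments apart cannot be told. The part of genotype in the mutants' ratios was not tested. This ratio was chosen after the members' values were seen and was not tested.

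**Figure D3:**
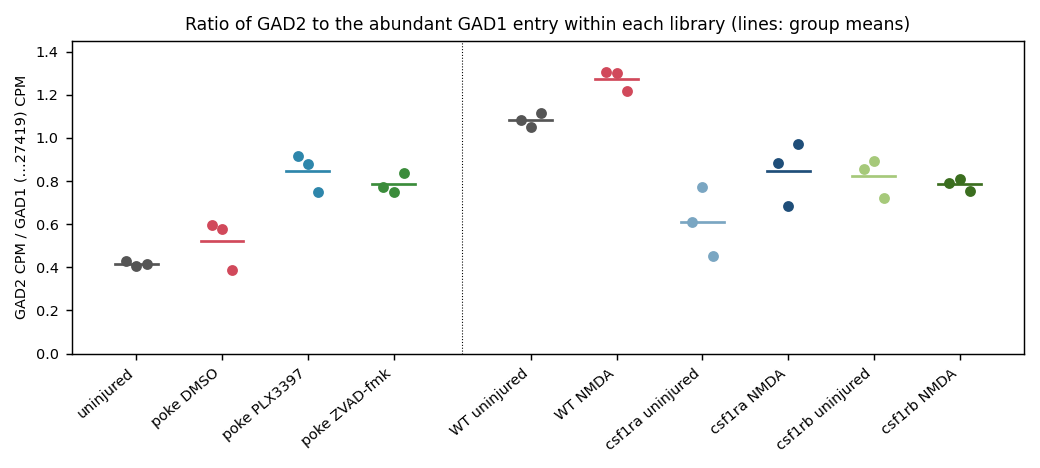
Ratio of GAD2 to the first GAD1 entry in every library (points) with group means (lines), on a linear axis from 0. Wild-type libraries of the NMDA experiment are the only ones above 1, and PLX3397 and ZVAD-fmk libraries of the needle poke experiment lie between 0.750 and 0.914.

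After the needle poke with DMSO few of the transmitter genes were called. In this comparison, 1 of the 10 rows fell and 0 rose, beside 13.4% of all genes that fell and 18.2% that rose (31.6% called in all), so with all libraries the count was no higher than the background. The median of the 10 was -0.33, beside -0.03 over all genes, and 8 of 10 values were below 0. In counts simulated for PLX3397 against DMSO in this experiment, 46.3% of 2-fold changes were called. Rows that did not pass may thus still have changed.

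calb2b was the member that fell. It stood at 191, 108 and 186 CPM in uninjured libraries and at 76.4, 66.3 and 60.7 CPM with DMSO (log2 fold change -1.25, SE 0.29, 2.38-fold lower, adjusted p = 0.0046). The groups did not overlap, and the call was kept in all 18 alternative settings at -1.46 to -1.12. With PLX3397 calb2b stood at 66.3, 25 and 45.1 CPM and with ZVAD-fmk at 44.9, 51.9 and 47.9 CPM, all below the uninjured libraries (-1.83 and -1.74, adjusted p = 0.0002 and 0.0004). Those calls too were kept in all 18 settings.

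**Figure D4:**
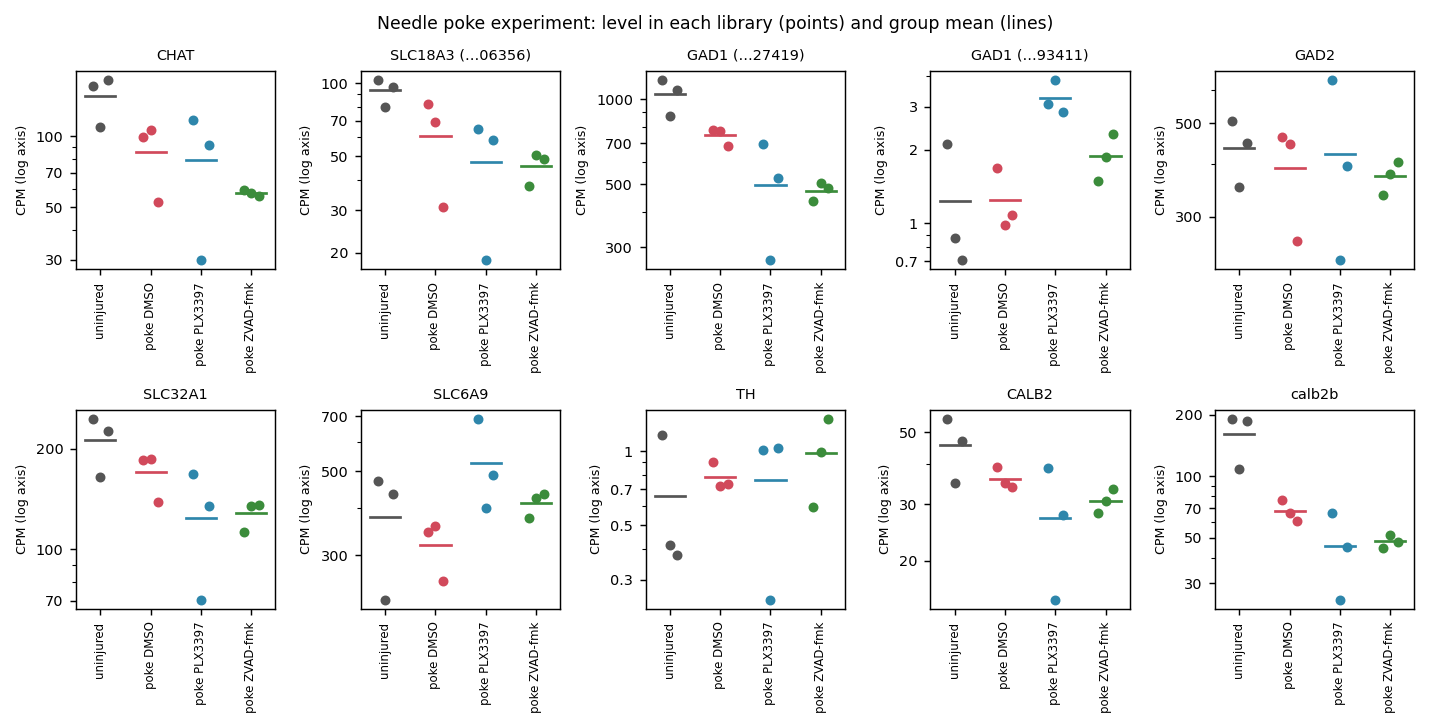
Level of each gene in CPM (log axis) in the 12 libraries of the needle poke experiment, points for libraries and lines for group means. In the calb2b panel the 9 poked libraries, at 25 to 76.4 CPM, all lie below the uninjured ones at 108 to 191 CPM, while most other panels overlap.

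CHAT and the first GAD1 entry did not overlap between uninjured and DMSO retinas, without passing the test. CHAT stood at 163, 109 and 174 CPM uninjured and at 99.4, 107 and 52.5 CPM with DMSO (log2 fold change -0.79, 95% interval -1.67 to 0.10, adjusted p = 0.14). The first GAD1 entry stood at 1173, 870 and 1082 CPM and at 780, 773 and 681 CPM (-0.48, adjusted p = 0.18). Both passed when PLX3397 replicate 2, a library of neither group that enters the shared estimate of the spread, was left out (adjusted p = 0.021 and 0.026), which gave 3 calls. Over all genes the leave-outs gave 5541 to 7403 calls in this comparison, against 6744 with all libraries. Of the others, SLC18A3 (-0.63, adjusted p = 0.26), SLC32A1 (-0.32, adjusted p = 0.38), GAD2 (-0.15, adjusted p = 0.75), SLC6A9 (-0.25, adjusted p = 0.52) and CALB2 (-0.34, adjusted p = 0.36) were on the low side of overlapping groups. TH (0.27, adjusted p = 0.79) and the second GAD1 entry (0.04, adjusted p = 0.96) had values above 0 and did not pass. When the 4 libraries that stand apart were left out, 7 rows fell, beside 17.7% of all genes that fell in that fit (39.2% called in all). The values were -0.70 for CHAT, -0.52 for the first GAD1 entry, -0.40 for SLC18A3, -0.33 for SLC32A1, -0.35 for SLC6A9, -0.44 for CALB2 and -1.38 for calb2b.

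Poked retinas of drugged fish were also set against uninjured ones, and 4 rows fell with either drug. With ZVAD-fmk, 4 of 10 rows fell and 0 rose, beside 18.6% and 21.9% of all genes (40.5% in all). CHAT stood at 59.5, 57.4 and 56.1 CPM (-1.37, SE 0.39, 2.58-fold lower, adjusted p = 0.013) and the first GAD1 entry at 436, 506 and 484 CPM (-1.13, SE 0.26, adjusted p = 0.0035), both kept in all 18 settings. SLC32A1, at 113, 135 and 136 CPM, passed less firmly (-0.73, SE 0.26, adjusted p = 0.037), and its call was lost without uninjured replicate 1 (-0.61) or 3 (-0.67), PLX3397 replicate 3 (-0.72), or ZVAD-fmk replicate 1 (-0.64), 2 (-0.76) or 3 (-0.77). SLC18A3 lay at 37.8, 50.6 and 48.9 CPM, below all uninjured libraries at 79.9 to 103 CPM (-1.03, adjusted p = 0.054), and passed without DMSO replicate 3 or PLX3397 replicate 2 (-1.02 in each). CALB2 passed without PLX3397 replicate 1 or 2 (-0.56 in each), and the second GAD1 entry, higher by 0.62 with all libraries, without uninjured replicate 1 (1.26). GAD2 (-0.22, adjusted p = 0.60) and SLC6A9 (0.12) did not pass. Without the 4 libraries, 6 rows fell, beside 22.2% of all genes, among them SLC18A3 (-1.0) and CALB2 (-0.65).

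With PLX3397, 4 rows fell and 1 rose against uninjured retinas, beside 19.9% and 23% of all genes (42.9% in all). The first GAD1 entry stood at 693, 269 and 528 CPM (-1.07, SE 0.26, adjusted p = 0.0049), a call kept in all 18 settings. SLC32A1 (-0.77, adjusted p = 0.028) and CALB2 (-0.74, adjusted p = 0.034) fell with overlapping groups. Their calls were lost without PLX3397 replicate 2 (-0.48 and -0.45), uninjured replicate 1 (-0.65 and -0.58) or 3 (-0.70 and -0.70), or PLX3397 replicate 3 (-0.83 and -0.75), and for CALB2 also without ZVAD-fmk replicate 2 (-0.74). The second GAD1 entry rose, from 2.12, 0.871 and 0.706 CPM to 3.08, 3.87 and 2.86 CPM (1.41, SE 0.42, adjusted p = 0.016). CHAT passed without PLX3397 replicate 1 (-1.28) and SLC18A3 without DMSO replicate 3 (-0.98). The rise of the second GAD1 entry was lost without uninjured replicate 3 (1.16, adjusted p = 0.055) or PLX3397 replicate 2 (1.28, adjusted p = 0.051). Without all 4 libraries that stand apart the second entry was at 1.11 (adjusted p = 0.069), 6 rows fell beside 20.7% of all genes, and SLC6A9 rose (0.40).

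Both drugs were set against the same DMSO pokes. With all libraries, the members' calls could not be set apart from the shares of all genes with only 10 rows, and the counts changed without the 4 libraries that stand apart. With PLX3397, 2 of 10 rows rose and 0 fell, beside 16.5% and 17.7% of all genes (34.2% in all). SLC6A9 stood at 346, 358 and 256 CPM with DMSO and at 689, 401 and 490 CPM with PLX3397 (log2 difference 0.72, SE 0.26, 1.65-fold higher, adjusted p = 0.046). Its groups did not overlap, but the call was lost in 10 of 18 settings, with 0.58 (adjusted p = 0.15) without DMSO replicate 3 and 0.48 (adjusted p = 0.19) without PLX3397 replicate 1. It also missed the threshold without any 1 of uninjured replicate 3 (0.73), DMSO replicates 1 (0.78) and 2 (0.81), PLX3397 replicate 3 (0.77), and ZVAD-fmk replicates 1 (0.73), 2 (0.72) and 3 (0.72). Without the 4 libraries that stand apart it passed, at 0.76 (SE 0.12, adjusted p = 0.00018). That fit had a smaller SE and nearly the same difference. The second GAD1 entry was higher by 1.38 (SE 0.42, adjusted p = 0.021), and was not called without DMSO replicate 2 (1.23) or 3 (1.28), without PLX3397 replicate 2 (1.24) or without the 4 libraries (1.15).

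With those 4 libraries left out, 1 row was higher and 3 were lower with PLX3397 than with DMSO, beside 19.2% and 19.4% of all genes (38.6% in all). The lower ones were the first GAD1 entry (-0.33, adjusted p = 0.022), SLC18A3 (-0.28, adjusted p = 0.038) and SLC32A1 (-0.28, adjusted p = 0.035). Leaving out PLX3397 replicate 1 alone gave 4 lower, namely the first GAD1 entry (-0.90), calb2b (-0.95), CALB2 (-0.74) and SLC32A1 (-0.73), and 1 higher. Over all genes the leave-outs gave 5865 to 7957 calls in this comparison, against 7297 with all libraries. With all libraries the first GAD1 entry was at -0.58 (adjusted p = 0.099), CHAT at -0.11 (adjusted p = 0.85) and GAD2 at 0.11 (adjusted p = 0.82). PLX3397 replicate 2 was the lowest library of its group for CHAT, at 29.8 CPM against 117 and 92.2 CPM, and for GAD2, at 237 CPM against 633 and 396 CPM.

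With ZVAD-fmk no row was called against DMSO by edgeR, with 1 at an unadjusted p below 0.05 and 1 called by DESeq2, beside 18.7% of all genes (9.7% higher and 8.96% lower). The first GAD1 entry had the lowest value (-0.65, 95% interval -1.24 to -0.05, adjusted p = 0.10) and no overlap with the DMSO libraries. It was called without PLX3397 replicate 2 (-0.65, adjusted p = 0.0089). Without the 4 libraries that stand apart, 5 rows fell, beside 13.8% of all genes that fell in that fit (28.5% called in all). They were CHAT (-0.86), the first GAD1 entry (-0.65), SLC18A3 (-0.60), calb2b (-0.52) and SLC32A1 (-0.46). The result thus depended on which libraries entered. PLX3397 and ZVAD-fmk libraries were not compared with each other.

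The rest of each transmitter pathway was read from lists of related genes, counted here without the members. After NMDA in wild type the 2 other acetylcholine genes and the 6 other GABA genes tested all fell, beside 34.3% of all genes. SLC5A7 (ENSDARG00000074860), the choline transporter that feeds acetylcholine synthesis, was at 25.6 ± 2.56 CPM uninjured and 7.17 ± 1.13 CPM after injury, a fall by 1.83 on the log2 scale (adjusted p = 6.7e-08). ACHE, acetylcholinesterase, fell by 1.72. Among GABA uptake transporters SLC6A13 fell by 3.37 (adjusted p = 4.7e-08) and SLC6A11 by 1.83. Of 6 other dopamine genes 5 fell. They included DDC (-0.82), the decarboxylase that follows tyrosine hydroxylase, SLC18A2 (-1.82), which loads dopamine into vesicles, SLC6A3 (-1.42), the dopamine transporter, and NR4A2 (ENSDARG00000044532, -2.62), a transcription factor of dopaminergic neurons.

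The glycine list did not move as one. SLC6A5, the neuronal glycine transporter GlyT2, was read at under 1 CPM and did not pass (-0.48, adjusted p = 0.45). SHMT1 and SHMT2, which interconvert serine and glycine in every cell's one-carbon metabolism, rose by 3.24 and 1.43 on the log2 scale. Neuropeptide genes also went both ways, with 5 of 11 lower and 2 higher, beside 34.3% and 35.6% of all genes. PENK (proenkephalin) fell by 3.99 and tac1 (tachykinin) by 2.86, while pyya (peptide YY) rose by 1.98 and pdyn (prodynorphin) by 2.33. Of 25 transcription factors known from amacrine cells 20 fell and 2 rose, the risers being SOX2 (1.35), also a gene of Müller glia, and NEUROD6 (ENSDARG00000020794, 0.83). The other NEUROD6 entry (ENSDARG00000040008) and FEZF1 fell furthest, by 2.42 and 2.40. Among other calcium-binding proteins 5 of 7 fell and NCALD (neurocalcin) rose by 1.91, while VSNL1 and vsnl1b, the visinin-like proteins, fell by 2.98 and 2.72. Of 13 other genes of amacrine subtypes 12 fell, with the glutamate receptor subunits GRIN1 (ENSDARG00000027828) and GRIA2 (ENSDARG00000070173) at -2.34 and -1.92. Of the defining enzymes, th2 had no count in any library and gad3 a single one, and chatb had no entry of its own.

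Markers of other cells moved at the same time. After NMDA in wild type, 15 of 19 pan-neuronal genes fell and 1 rose, at a median of -1.39, and 16 of 20 ganglion cell, 17 of 19 bipolar cell, 10 of 12 horizontal cell and 16 of 19 rod genes fell. Genes of dividing cells rose in 20 of 21 cases. Of all genes, 34.3% fell and 35.6% rose. Summed CPM of the amacrine transmitter genes was 3500 to 3733 uninjured and 803 to 956 after NMDA, while the pan-neuronal sum was 6534 to 6967 and 2608 to 2830. The sum over dividing-cell genes was 818 to 867 and 5709 to 6097. The horizontal cell sum did not follow its gene count, at 305 to 332 uninjured and 399 to 428 CPM after NMDA. The part of these shifts in the members' values was not tested.

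**Figure D5:**
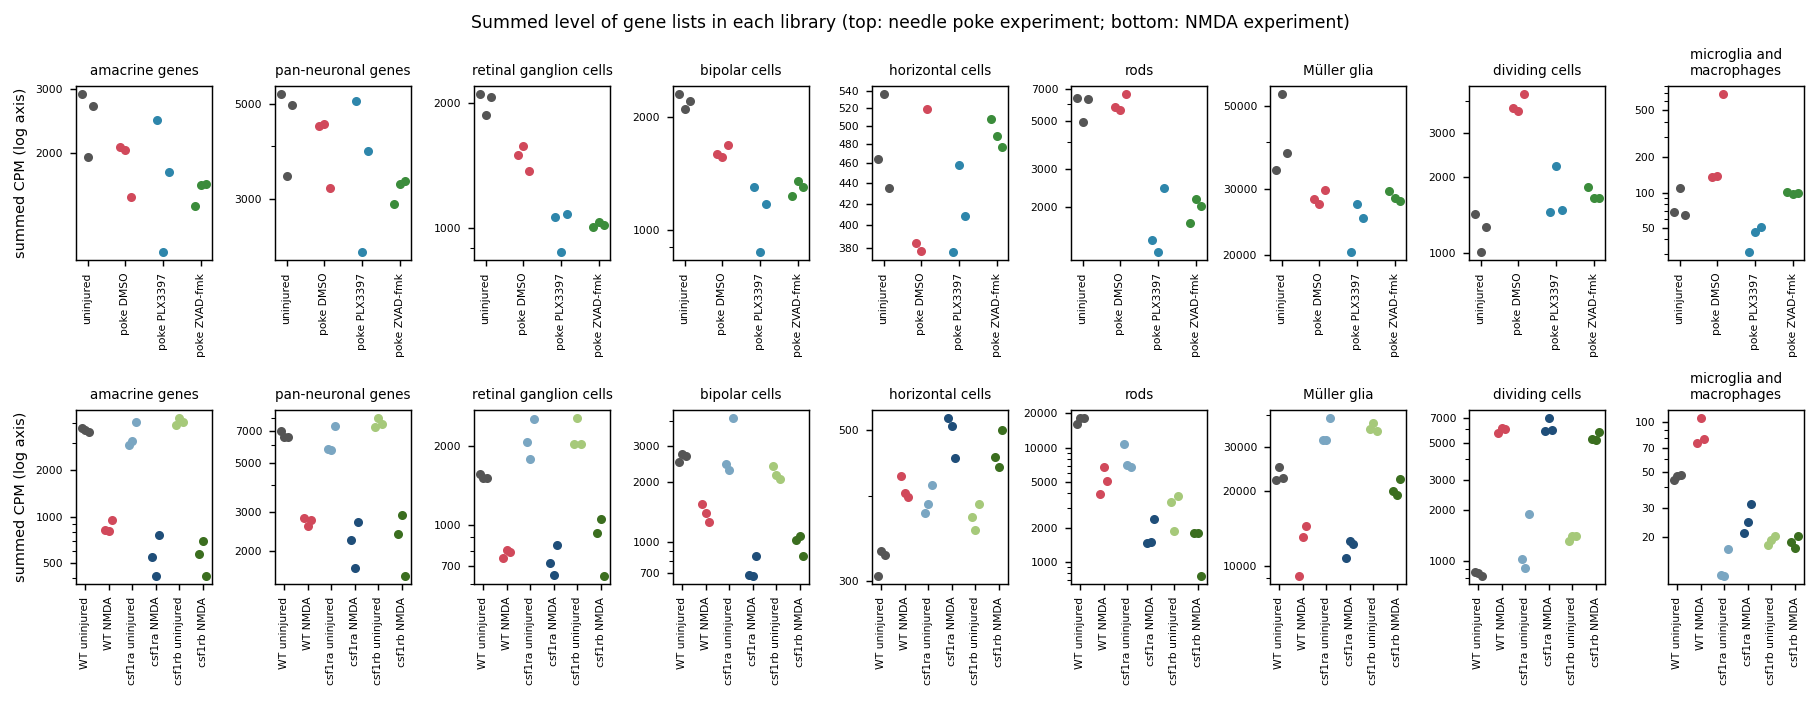
Summed CPM (log axes, each with its own range) of the amacrine transmitter genes and of 8 marker lists in every library, needle poke experiment above and NMDA experiment below, points for libraries. After NMDA the amacrine and pan-neuronal sums lie below, and the dividing-cell sums above, those of uninjured libraries of the same genotype.

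In the mutants after NMDA, 3 of 19 pan-neuronal genes were lower than in wild type with either csf1ra or csf1rb, and 10 and 14 of 14 microglia genes were lower. Of all genes, 13.2% and 11.4% were lower, so the pan-neuronal counts were near that share. The pan-neuronal sum was 1691 to 2700 CPM in csf1ra mutants and 1547 to 2917 CPM in csf1rb mutants, against 2608 to 2830 CPM in wild type. The library with the lowest pan-neuronal sum of each mutant group, csf1ra mutant replicate 2 and csf1rb mutant replicate 4, was also the lowest for GAD2. In the csf1rb interaction, where SLC6A9 was called, 17 of 21 dividing-cell genes were lower, 4 of 14 Müller glia genes higher and 0 of 19 pan-neuronal genes called. Of all genes, 4.07% were lower and 4.1% higher in that interaction. Müller glia are among the cells in which SLC6A9 occurs in other vertebrates, and their sum was 34755 to 37168 CPM in uninjured csf1rb mutants against 22064 to 24964 CPM in uninjured wild type, and 19222 to 22321 against 9140 to 14506 CPM after NMDA. Their part in the SLC6A9 result was not tested.

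The same lists were counted after the poke with DMSO, where 13.4% of all genes fell and 18.2% rose. Of 25 amacrine transcription factors 10 fell and 0 rose, among them NFIX (-1.21), and 3 of 6 other GABA genes fell, among them SLC6A13 (-2.25) and SLC6A11 (-1.71). Of 3 other glycine genes SHMT1 (1.35) and SHMT2 (0.65) rose, and 0 of 2 other acetylcholine genes was called. NR4A2 (ENSDARG00000044532) fell by 1.83 although TH did not pass. PENK fell by 1.96, while pyya rose by 1.85 and adcyap1b, a PACAP gene, by 1.55. NEUROD6 (ENSDARG00000040008) fell by 1.28. Among calcium-binding proteins VSNL1 and HPCAL1 (hippocalcin-like) both fell by 0.99, NCALD rose by 0.75, and DAB1, a reelin pathway adaptor of AII amacrine cells in mammals, was lower as well (-1.0, adjusted p = 0.013). Of markers, 10 of 20 ganglion cell and 8 of 18 bipolar cell genes fell, 20 of 22 dividing-cell and 11 of 15 microglia genes rose, and 0 of 19 pan-neuronal genes fell. Calretinin also occurs in ganglion cells, whose summed CPM was 1872 to 2103 CPM uninjured and 1374 to 1575 CPM with DMSO. Their part in the fall of calb2b was not tested.

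Against DMSO, both drugs were followed by higher DDC, with 2.36 ± 0.592 CPM under DMSO, 6.07 ± 0.786 CPM under PLX3397 (log2 difference 1.36, adjusted p = 0.00058) and 7.34 ± 0.33 CPM under ZVAD-fmk (1.64, adjusted p = 0.00041). TH stood at 0.787 ± 0.101, 0.766 ± 0.447 and 0.979 ± 0.378 CPM in the same groups and was not called. SLC6A13 was higher with both drugs (1.19 and 1.36). Of 11 neuropeptide genes 6 were lower with PLX3397 and 1 higher, pyya falling from 21 ± 2.3 to 3.94 ± 1.74 CPM (-2.41, adjusted p = 0.00042) and PENK rising by 1.36. Rods were lower by 17 of 19 genes with PLX3397 and 15 of 19 with ZVAD-fmk. Dividing cells were lower by 15 and 14 of 22 and microglia by 14 and 4 of 15, while pan-neuronal genes were lower in 2 and 3 of 19. With PLX3397, 17.7% of all genes were lower and 16.5% higher, and with ZVAD-fmk 8.96% and 9.7%. The part of these shifts in the members' values was not tested.

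Likeness across libraries was measured, as a description, by the root mean square difference between centred log2 CPM profiles. Among the members, over the 12 needle poke libraries, SLC32A1 and CALB2 were nearest to each other (0.117), the first GAD1 entry was nearest to SLC32A1 (0.173) and CHAT to SLC18A3 (0.227). Over the 18 NMDA libraries the first GAD1 entry was nearest to SLC18A3 (0.252) and CHAT to SLC18A3 (0.38). These profiles share depth, scaling and the group differences given above. Among all genes, those nearest to calb2b in the needle poke experiment were YWHAG (0.171), VSNL1 (0.179) and CAMK4 (0.179), and in the NMDA experiment PCP4 (0.253), vsnl1b (0.286) and si:dkey-226m8.10 (0.297). Those nearest to CHAT were tmem200b (0.163), BHLHE22 (0.167) and vsnl1b (0.187) in the needle poke experiment and SYT9 (0.259), PHF24 (0.296) and chgb (0.301) in the NMDA experiment. The second GAD1 entry and TH had no close neighbours, the nearest being NOS2 at 0.324 and si:dkey-30j10.5 at 0.806. GAD2 varied least between the needle poke groups, with a range of 0.208 between group means on the log2 scale, and calb2b most, with 1.89 there and 3.66 in the NMDA experiment.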

How the data were processed

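RNA was measured by poly(A) sequencing of 30 retinal libraries, and per the submitters' processing notes cutadapt 4.8, FastQC 0.11.8, STAR 2.7.8a, RSEM 1.3.3 and the build GRCz11 were used. The deposited values are expected counts for each gene, rounded to integers and not scaled by the authors as far as the tables show. The strand setting is not given in the sources used here. From the table of the needle poke experiment 12 of 21 columns were used, as 9 match no sample, and 4 transgene rows were left out. Symbols came from an identifier table (29201 of 32520 rows).

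Each experiment was fitted once over all its groups with edgeR 4.0.16 (R 4.3.3, limma 3.58.1): TMM factors, a filter on low counts by group, robust quasi-likelihood F tests and Benjamini-Hochberg adjustment over all genes tested (21334 and 20254). SE is the fold change divided by the root of F. The 14 comparisons were 12 between pairs of groups and 2 interactions. Tests were checked on counts simulated with the spread of these libraries. For PLX3397 against DMSO, 5.97% of 1.5-fold, 46.3% of 2-fold and 86.4% of 4-fold changes were called. For NMDA in wild type the shares were 23.9%, 74.6% and 95.5%. A row that was not called is therefore no sign that its level stayed the same. No 2 libraries of a group agreed within sampling noise (lowest chi-square per degree of freedom 7.73 and 8.17). The biological coefficient of variation was 0.292 and 0.171, and 3 replicates per group set the precision. The limit for 0 counts is 3 counts and covers counting error only.

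The members and all lists (8 pathway lists of 91 genes and 10 marker lists of 173 genes) were chosen with earlier results of these data known. Every member is named. The pathway genes named are, for each list, the 2 or fewer called genes with the largest rise and fall after NMDA in wild type and after the poke with DMSO, and the defining enzymes and transporters, and for likeness the 3 nearest genes of the 3 members with the widest range of group means. Alternatives were DESeq2 1.42.0, its size factors, no filter, only the groups compared, a replicate block, leaving out each library, and leaving out the 4 libraries that stand apart. Not every gene that this rule names is reported here. No genome was used, so no sequences are shown.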

Additional observations from a re-analysis of the deposited data

Results flagged for a closer look

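The response of SLC6A9 to NMDA differed between csf1rb mutants and wild type by the test of the difference itself, with an interaction of -1.24 on the log2 scale (SE 0.33, adjusted p = 0.026 by edgeR's quasi-likelihood test). SLC6A9 fell in every injected library of both genotypes relative to the uninjured ones, by 3.21 in csf1rb mutants and by 1.97 in wild type. That call was lost in 8 of 23 alternative settings, each without 1 library, and 1 called row of 10 stands beside 8.18% of all genes called in the same interaction.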

How the results depend on the processing

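Members called after NMDA against uninjured were 9 of 10 in wild type whichever library was left out, 9 to 10 in csf1ra mutants and 8 to 9 in csf1rb mutants. Other counts of members moved between 1 and 3 (DMSO poke against uninjured), 2 and 6 (PLX3397 poke), 3 and 6 (ZVAD-fmk poke), 0 and 5 (PLX3397 against DMSO), 0 and 1 (ZVAD-fmk against DMSO, and the csf1ra interaction), 0 and 4 (csf1rb interaction), 0 and 3 (csf1ra against wild type uninjured), 1 and 1 (csf1rb uninjured) and 1 and 3 (each mutant after NMDA). Over all genes the leave-outs gave 5541 to 7403, 7782 to 9896, 6968 to 9346, 5865 to 7957 and 2344 to 4698 calls in the 5 needle poke comparisons in that order, 13201 to 14874, 14144 to 15178 and 13501 to 15082 for NMDA in wild type, csf1ra and csf1rb mutants, 597 to 1610 and 984 to 2712 for the csf1ra and csf1rb interactions, 1595 to 4380 and 3854 to 6900 for the uninjured mutants, and 3095 to 6158 and 3435 to 5992 for the mutants after NMDA.

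With only the groups compared, members called were 3 (PLX3397 poke against uninjured), 2 (ZVAD-fmk against DMSO), 4 (csf1ra after NMDA), 1 (csf1ra uninjured), 4 (csf1rb interaction) and 5 (csf1rb uninjured). DESeq2 called 1 (ZVAD-fmk against DMSO) and 3 (csf1rb interaction). Apart from the totals over all genes given below, these counts were not set against the share of all genes called in the same fit. Without the 4 libraries that stand apart the counts were 7 (DMSO poke against uninjured), 4 (PLX3397 against DMSO) and 5 (ZVAD-fmk against DMSO). Over all genes, ZVAD-fmk against DMSO gave 6154 calls without those 4 libraries (3981 with them), the csf1ra interaction 1926 with DESeq2 (1181 with edgeR), the csf1rb interaction 2513 with DESeq2 and 2686 with only the groups compared (1656 otherwise), and csf1ra against wild type uninjured 1537 with only the groups compared (2975 otherwise).

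The replicate numbers gave no sign of pairing the libraries. Same-numbered libraries correlated at -0.132 to 0.162 (needle poke) and -0.150 to 0.142 (NMDA). Those with other numbers correlated at -0.228 to 0.216 and -0.235 to 0.198. With 3 libraries a group this check cannot exclude a pairing. With a replicate block, members called were 1 (PLX3397 against DMSO), 6 (csf1ra after NMDA), 3 (csf1rb interaction) and 2 (csf1rb uninjured), and calls over all genes 1897 (csf1ra interaction) and 1630 (csf1ra uninjured). The members' counts with the block were not set against the share of all genes called in that fit. The block also ended the calls of GAD2 in uninjured csf1ra mutants (-0.63, adjusted p = 0.27), SLC6A9 in csf1rb mutants after NMDA (-0.61, adjusted p = 0.080) and SLC6A9 with PLX3397 against DMSO (0.68, adjusted p = 0.055). TH turned direction in csf1ra mutants after NMDA, to 0.29 without uninjured replicate 5 (leave-outs from -4.03) and 0.12 with the replicate block, and against wild type uninjured to -3.15 without that library (leave-outs up to 0.91) and -2.96 with the block (0.31 otherwise), both past the threshold (adjusted p = 0.024 and 0.045). Apart from leave-outs, 681 of the single-gene values were counted as the same, being called alike or uncalled and within 1 SE of the main value. A further 51 newly passed and 10 no longer passed. Another 5 stayed uncalled but moved by more, and 2 turned direction with a call before or after. Why values moved was not tested. No scaling moved the median of all genes by over 0.061. Depth limits TH and the second GAD1 entry, which hold few counts.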
